A study of Rattus norvegicus with 12 samples.

Results

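The 10 genes followed here build or restrain bone mineral and were measured across control, bur-drilled and laser-ablated rat skull bone. They are Alpl, Phospho1, Enpp1, Spp1, Ibsp, Bglap, Mgp, Sparc, Omd and Ifitm5. The genes were taken by name from a list of mineralisation enzymes and noncollagenous bone matrix genes, and the rule sets no threshold on a measured value. All 10 of 10 were on the array, with 14 probes, among 22718 genes tested. Every one of the 14 probes was well above background on all 12 arrays, so all 10 genes passed the filter on dim probes.

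Bone mineral is a calcium phosphate that is laid down in a collagen matrix. Tissue-nonspecific alkaline phosphatase, the product of Alpl, sits on the osteoblast surface and on matrix vesicles, where it breaks down pyrophosphate, an inhibitor of crystal growth. Enpp1 encodes the enzyme that makes this pyrophosphate from nucleotides outside the cell, and Phospho1 encodes a phosphatase that frees phosphate inside matrix vesicles. The noncollagenous proteins bind mineral, collagen or cell surface receptors, and several of them are used as markers of how far osteoblasts have matured.

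The samples were calvaria, the bone of the skull roof, of rats aged 10 weeks, taken 72 h after surgery, with 4 arrays in each of 3 groups. In the laser group a defect of 8 by 3 mm was cut with 3 strokes of an Er:YAG laser, an infrared laser whose light is absorbed by water in hard tissue, at 20 Hz and an output of 127 mJ per pulse. In the bur group a defect of the same size was drilled with a rotating bur. In the control group the bone was stripped of its periosteum and left without ablation according to the treatment protocol, although other labels call this bone non-treated. The labels name no strain or genotype. Nothing in them states that the 4 samples of a group are different animals, so a p-value here reflects the spread among these samples and that spread may be technical.

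The controls shared a slide with no treated sample, and the 8 treated arrays shared a second slide, scanned separately. On that slide bur samples filled column 1 and laser samples column 2. Group and slide thus cannot be told apart when either treatment is set against control, and group and slide column cannot be told apart when laser is set against bur. The share of probes well above background was 58.1% to 60% in control, 63% to 67% in bur and 59.8% to 65.5% in laser bone. The log2 75th percentile used for scaling was 9.4 to 9.71 in control, 9.66 to 10.4 in bur and 9.5 to 10.2 in laser bone. The number of arrays limits the precision. On the first principal component control replicate 3, at 6.67, was the control closest to the treated samples. All 6 osteoblast markers on a fixed list (Sp7, Runx2, Col1a1, Col1a2, Bglap and Ibsp) were well above background on all 12 arrays.

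Each array signal comes from a 60-base probe, and the probes of 3 genes whose values carry the comparisons are shown first. The dimmer Ifitm5 probe is shown with them because it ends on a stop triplet (TAA, TAG or TGA). The dimmer Alpl probe and the brighter Ifitm5 probe, not shown, also end on such a triplet. Positions are those of the array design on build rn4, and whether each probe lies in an exon or UTR was not determined here. Capitals mark the last 3 bases of the dimmer Ifitm5 probe, the only stop triplet in the frame that starts at its first base. Whether this is the frame of the protein was not determined.
Phospho1, chr10:84541706-84541765 (+ strand): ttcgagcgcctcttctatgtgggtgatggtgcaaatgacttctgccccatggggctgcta
Enpp1, chr1:21287338-21287397 (+ strand): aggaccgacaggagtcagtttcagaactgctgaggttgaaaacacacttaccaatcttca
Spp1, chr14:6422382-6422441 (- strand): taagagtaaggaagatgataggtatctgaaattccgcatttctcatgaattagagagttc
Ifitm5, chr1:201128934-201128993 (- strand): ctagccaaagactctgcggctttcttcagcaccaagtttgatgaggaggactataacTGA
The Phospho1, Ibsp, Spp1, Bglap, Sparc and Mgp values each rest on 1 probe, and Alpl, Enpp1, Ifitm5 and Omd each have 2 probes, 189 to 1208 bases apart on rn4. The Spp1, Sparc and Mgp probes are each spotted 10 times on every array. The brighter probe stood for a gene with 2.

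Upstream sequence was read for 8 of the 10 genes from RefSeq on assembly GRCr8, and 5 promoters are shown because they set 4 genes that rose after laser ablation beside Bglap, for which no change was called. Each line gives the 150 bases just before the annotated start, and capitals mark every match, on either strand, to the motifs spelled out after them.
Alpl, chr5:155289786-155289935 (- strand): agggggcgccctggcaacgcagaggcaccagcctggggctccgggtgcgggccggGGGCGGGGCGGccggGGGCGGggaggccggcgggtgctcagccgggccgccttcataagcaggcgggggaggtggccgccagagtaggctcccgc
Phospho1, chr10:81258660-81258809 (+ strand): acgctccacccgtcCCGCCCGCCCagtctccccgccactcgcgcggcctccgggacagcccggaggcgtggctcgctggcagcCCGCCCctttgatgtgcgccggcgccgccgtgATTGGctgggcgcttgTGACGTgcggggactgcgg
Ibsp, chr14:5757243-5757392 (- strand): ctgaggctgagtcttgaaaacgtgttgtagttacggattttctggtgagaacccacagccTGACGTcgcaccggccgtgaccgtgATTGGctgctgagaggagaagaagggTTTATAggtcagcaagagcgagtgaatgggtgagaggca
Spp1, chr14:5619805-5619954 (- strand): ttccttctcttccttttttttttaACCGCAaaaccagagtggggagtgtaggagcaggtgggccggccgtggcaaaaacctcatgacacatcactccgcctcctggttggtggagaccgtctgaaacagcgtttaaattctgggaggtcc
Bglap, chr2:176137319-176137468 (- strand): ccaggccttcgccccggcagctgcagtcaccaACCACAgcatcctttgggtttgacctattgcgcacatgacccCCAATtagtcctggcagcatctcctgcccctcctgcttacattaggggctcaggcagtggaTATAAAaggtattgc
The motifs were searched in the 250 bases before the start on both strands, and none of the matches in the shown sequences overlaps a match to another motif. The GC box, GGGCGG, occurred in Alpl and Phospho1 and in 30.5% of 33469 rat promoters of the same length. The CCAAT box, CCAAT, occurred in Phospho1, Ibsp and Bglap and in 34.0% of all promoters. The cyclic AMP response element core, TGACGT, was found in Phospho1 and Ibsp, against 6.95% of all promoters. TATAAA, the letters of the TATA box, was found in Ibsp, Spp1 and Bglap, against 12.9%. The Spp1 match lies 204 to 199 bases before the start, outside the bases shown, and the Bglap match 15 to 10 bases before it. In Ibsp the match lies 39 to 34 bases before the start. ACCACA, the core bound by RUNX factors, was found in Bglap and Sparc, against 14.5%, and its other form ACCGCA was found in Spp1, against 5.02%. TGANTCA, the AP-1 site, was found in Phospho1, 219 to 213 bases before the start and outside the bases shown, against 6.34%. No motif was shared by all 4 of the shown genes that rose. A match is a description of these letters and not a measured binding site.

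Laser ablation was compared with control bone to see how the mineralisation genes stood 72 h after the cut. Expression of 5 of the 10 genes rose and none fell. Alpl was 2.04-fold, Phospho1 2.53-fold, Enpp1 2.26-fold, Spp1 2.21-fold and Ibsp 1.6-fold of its control level. These 5 genes span both enzymes that supply phosphate, the enzyme that makes the inhibitor pyrophosphate, and a pair of acidic glycoproteins of the matrix. The other 5 genes, Bglap, Mgp, Sparc, Omd and Ifitm5, did not pass the test. Calls used limma with Benjamini-Hochberg adjustment over all 22718 genes and a threshold of 0.05, at which 22.3% of all genes were called, 9.26% as higher. All 10 changes were above 0 on the log2 scale, from 0.12 to 1.34 with a median of 0.85, against a median of 0.02 over all genes. In the same 5 genes all laser arrays lay above all control arrays, a separation in this direction that 8.87% of all genes showed. Leaving out 1 array at a time gave 2 to 6 called genes. There were only 2 without control replicate 1, laser replicate 2 or laser replicate 3. There were 3 without control replicate 2, control replicate 4 or laser replicate 4. Calls over all genes fell in these fits as well, from 2103 higher and 2958 lower. For the fits with 2 called genes they were, in turn, 449 and 796, 517 and 801, and 529 and 998. For those with 3 they were 1469 and 1964, 831 and 1143, and 1036 and 1596.

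Bur drilling was compared with the same 4 control arrays, so both comparisons share their controls and are not independent. After drilling, 2 of the 10 genes rose, Spp1 to 2.29-fold and Enpp1 to 2.14-fold of control, and none fell, where 26.2% of all genes were called and 9.99% were called as higher. The changes of the 10 genes ran from -0.19 to 1.20 on the log2 scale, with a median of 0.40 against a median near 0 over all genes. For Spp1 all bur arrays lay above all control arrays, which 9.6% of genes showed in this direction. Only Spp1 of the 10 was called without control replicate 1, 2 or 4 or bur replicate 1, 3 or 4. The same held without laser replicate 1 or 3. Over all genes these fits called 878 to 2207 as higher, against 2270 in the main fit.

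Laser and bur were then compared directly, since a gene called in one comparison with control and not in the other is not thereby shown to differ between the treatments. limma called 0 of the 10 genes and 0 of 22718 (0%), with an adjusted p of 0.9998 for each of the 10. At an unadjusted p under 0.05 there were 574 genes, or 2.53% of all, among them Alpl and Phospho1. Alpl was 0.77 higher on the log2 scale after laser than after bur (95% interval 0.29 to 1.25). Phospho1 was 0.75 higher (interval 0.05 to 1.45). For Spp1 the difference was -0.05 (interval -0.53 to 0.43) and for Enpp1 0.07 (interval -0.70 to 0.85). In 0 of the 10 genes did the laser and bur arrays separate fully, against 2.15% of all genes, and a p above the threshold does not show that the treatments act alike.

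**Figure D1:**
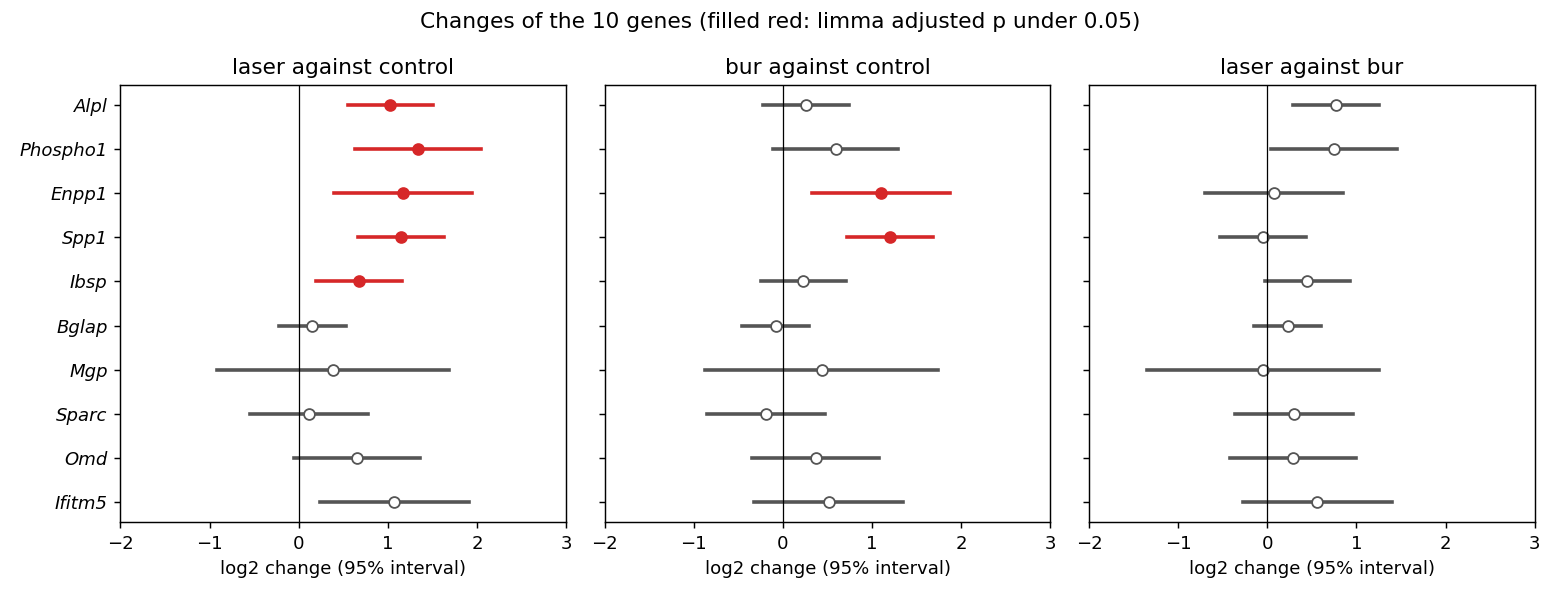
Log2 changes of the 10 genes (points) with 95% intervals (lines) in laser against control, bur against control and laser against bur, from limma on 12 arrays, with filled red points where the adjusted p was under 0.05. There are 5 filled points in the laser panel, 2 in the bur panel and 0 in the direct comparison, where the Alpl and Phospho1 intervals lie above 0.

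Values below are log2 signals relative to the 75th percentile of each array, for replicates 1 to 4 in turn. Since the samples are whole bone, a lower signal from fewer cells of a type and one from less RNA per cell cannot be told apart. Alpl, the phosphatase gene, was at -0.04, 0.08, 0.21 and -0.55 in control. It was at 0.13, 0.17, -0.18 and 0.62 in bur bone and at 0.98, 0.98, 1.30 and 0.58 in laser bone. Every laser array was above every control array, and the laser and bur groups overlapped only because bur replicate 4 exceeded laser replicate 4. Laser raised it by 1.03 (SE 0.22, 95% interval 0.55 to 1.51, limma adjusted p = 0.0149), and the call held when any 1 array was left out, with changes of 0.87 to 1.16. For bur the change was 0.26 (interval -0.22 to 0.74, limma adjusted p = 0.393).

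The second Alpl probe, which lies 354 bases from the first, gave the same calls. It was at -1.60, -1.42, -1.42 and -1.57 in control, at -1.63, -1.38, -2.24 and -0.88 in bur and at -1.01, -0.53, -0.34 and -0.68 in laser bone. All laser arrays were again above all control arrays. Its change was 0.86 for laser against control (limma adjusted p = 0.0349 over all kept probes) and -0.03 for bur against control (limma adjusted p = 0.946).

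Phospho1, the matrix vesicle phosphatase gene, was read at low spot signal, with processed intensities of 14.8 to 119. Its log2 level was -5.63, -4.48, -4.43 and -4.66 in control, -4.05, -4.10, -4.81 and -3.88 in bur and -4.15, -3.28, -3.0 and -3.42 in laser bone. The laser arrays lay above all controls, while bur replicate 3 lay within the control range. The rise after laser was 1.34 (SE 0.32, interval 0.64 to 2.04, limma adjusted p = 0.0197), and the bur value was 0.59 (interval -0.11 to 1.29, limma adjusted p = 0.186). With normexp background correction these changes were 0.53 and -0.02, so the size depended on the background correction. The laser call was lost without control replicate 1 (change 1.06, limma adjusted p = 0.0536). It was also lost without laser replicate 2 (1.28, limma adjusted p = 0.0567) and without laser replicate 3 (1.19, limma adjusted p = 0.0581). Those fits called 449 to 529 of all genes as higher, against 2103 in the main fit.

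Enpp1, whose enzyme makes pyrophosphate, was at -0.27, 0.28, 0.98 and -0.24 in control. It was at 1.01, 0.54, 1.77 and 1.82 in bur and at 1.43, 0.99, 1.1 and 1.92 in laser bone. Both treated groups were high. Control replicate 3 lay just below the lowest laser array and above the lowest bur array. The change was 1.17 after laser (SE 0.35, interval 0.40 to 1.95, limma adjusted p = 0.0375) and 1.1 after bur (SE 0.35, interval 0.32 to 1.88, limma adjusted p = 0.0409). The second Enpp1 probe, 1208 bases away, did not pass in either comparison. It changed by 0.53 after laser (interval -0.10 to 1.16, limma adjusted p = 0.198) and 0.61 after bur (interval -0.02 to 1.24, limma adjusted p = 0.138). The laser call held in 5 and the bur call in 4 of 12 fits that each left out 1 array. The laser call was lost without control replicate 1, 2 or 4 or any 1 laser array (limma adjusted p = 0.0616 to 0.107). Where it was lost, 449 to 1945 of all genes were called higher, against 2103 in the main fit. The highest limma adjusted p in the bur fits was 0.112. With no filter on dim probes the laser call was lost too (limma adjusted p = 0.0608). With the mean of probes both calls were lost (limma adjusted p = 0.0733 for laser and 0.0674 for bur). Both were also lost in the fits on only the 2 groups compared.

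**Figure D2:**
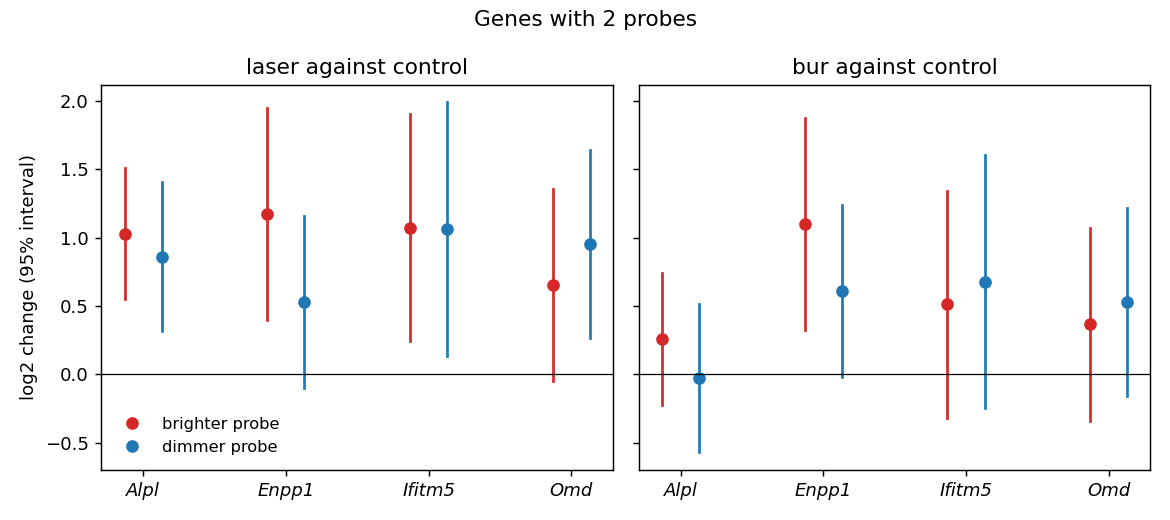
Log2 changes (points) with 95% intervals (lines) for the brighter and the dimmer probe of Alpl, Enpp1, Ifitm5 and Omd, against control. The Alpl probes agree at 1.03 and 0.86 after laser, while the dimmer Enpp1 probe gives 0.53 where the brighter gives 1.17.

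Spp1 encodes osteopontin, an acidic glycoprotein that binds mineral and integrins and that macrophages and osteoclasts make as well as bone cells. Its level was 5.18, 5.38, 5.46 and 4.50 in control. It was 6.35, 6.13, 6.28 and 6.56 in bur and 6.21, 6.49, 5.89 and 6.52 in laser bone. No treated array overlapped a control array, and the treated groups lay over the same range. The change was 1.15 after laser (SE 0.22, interval 0.66 to 1.63, limma adjusted p = 0.0108) and 1.20 after bur (SE 0.22, interval 0.71 to 1.68, limma adjusted p = 0.0062). Both calls held when any 1 array was left out, at 0.94 to 1.28 for laser and 0.99 to 1.31 for bur.

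Some macrophage markers were called higher in the same comparisons. Over all genes 9.26% were called higher after laser and 9.99% after bur. Of 9 macrophage markers, all well above background on every array, 3 rose after laser (Cd14, Msr1 and Trem2) and 5 after bur (these with Adgre1 and Csf1r), and none was called lower. Cd163, on the same list, was at -0.73 after laser (limma adjusted p = 0.219) and -0.76 after bur (limma adjusted p = 0.194). The log2 of their summed level was 3.29 to 4.92 in control, 4.94 to 6.16 in bur and 4.82 to 6.07 in laser bone, so the laser range overlapped that of control. Of 6 osteoclast markers with a kept probe, limma called 0 in either comparison, with 0 also at an unadjusted p under 0.05. Their summed level was 5.31 to 6.83 in control, 5.64 to 7.15 in bur and 5.39 to 6.72 in laser bone. The part of these cells in the Spp1 change was not tested.

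Ibsp encodes bone sialoprotein, a nucleator of mineral found in osteoblasts at the mineralising front. It was at 1.88, 2.15, 2.21 and 1.72 in control, at 2.22, 2.11, 1.80 and 2.76 in bur and at 2.47, 2.54, 3.11 and 2.56 in laser bone. All laser arrays were above all controls, and laser replicate 3 was far above the other laser arrays. The change after laser was 0.68 (SE 0.22, interval 0.20 to 1.16, limma adjusted p = 0.0461), close to the threshold. With the replicate number as a block the call was lost (limma adjusted p = 0.0718). The same held with no filter on dim probes (limma adjusted p = 0.0778) and in the fit on only the 2 groups compared. Those last settings called 1199 and 651 of all genes as higher. The Ibsp call held in 4 of 12 fits that each left out 1 array. It was lost without control replicate 1, 2 or 4, bur replicate 1 or 2, or laser replicate 2, 3 or 4. In these fits 449 to 1743 of all genes were called higher, against 2103 in the main fit. The smallest change, 0.53, came without laser replicate 3. After bur the change was 0.23 (interval -0.25 to 0.71, limma adjusted p = 0.452).

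Ibsp and Spp1 lie in 1 cluster of related genes on rat chromosome 14. In RefSeq the order of protein-coding genes there is Spp1, Mepe, Ibsp, Dmp1 and Dspp with no other between them, and on rn4 their probes span 254 kb. After laser ablation 4 of these 5 genes rose, Mepe by 1.37 and Dmp1 by 1.56 beside Spp1 and Ibsp, where 9.26% of all genes were called higher and the Ibsp call was lost with the replicate block (limma adjusted p = 0.0718). Dspp, the dentin sialophosphoprotein gene, was at -0.02 (limma adjusted p = 0.937). After bur drilling Spp1 was the 1 gene of the 5 that rose, where 9.99% of all genes were called higher, with Mepe at 1.0 (limma adjusted p = 0.0618) and Dmp1 at 0.77 (limma adjusted p = 0.126).

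**Figure D3:**
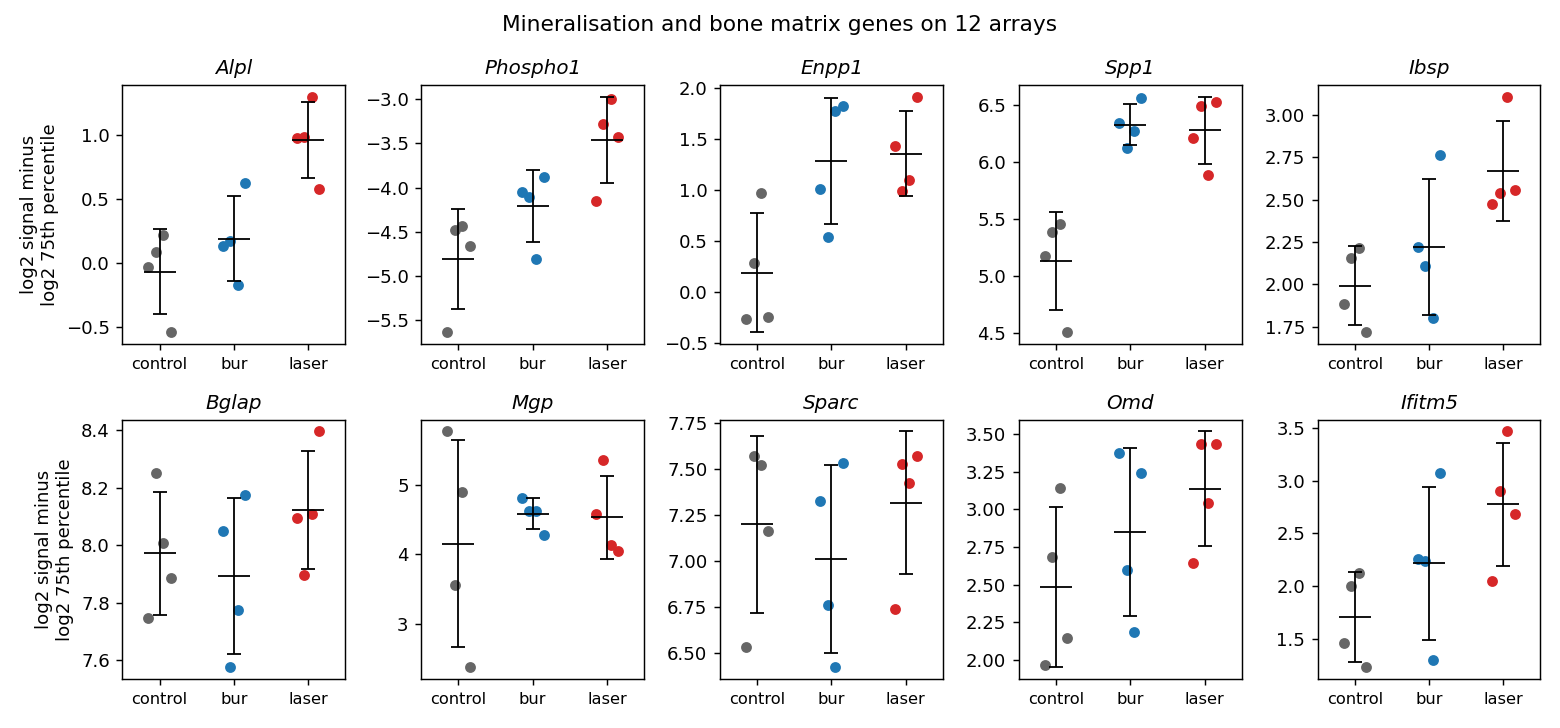
Log2 signal minus the array's log2 75th percentile for the 10 genes, with 1 point for each of 4 arrays per group and the group mean ± SD as bars; each panel has its own scale. Laser points lie above all control points for Alpl, Phospho1, Enpp1, Spp1 and Ibsp, and the groups overlap for the other 5 genes.

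Bglap encodes osteocalcin, the vitamin K-dependent protein of mature osteoblasts. It was at 7.75, 8.25, 8.01 and 7.88 in control, at 8.05, 7.58, 7.77 and 8.17 in bur and at 8.09, 7.89, 8.11 and 8.39 in laser bone. The 3 groups overlapped throughout, and the spread between arrays of a group was the smallest of the 10 genes, at a pooled SD of 0.232. The laser change was 0.15 (interval -0.22 to 0.53, limma adjusted p = 0.54) and the bur change was -0.08 (interval -0.46 to 0.30, limma adjusted p = 0.757). This result depended on the scaling. Quantile normalization of the same signals gave 0.48 for laser (limma adjusted p = 0.0555) and 0.43 for bur (limma adjusted p = 0.0728). The authors' deposited table of comparisons gives 0.53 (adjusted p = 0.0329) and 0.55 (adjusted p = 0.0264), which is a rise in both at the same threshold.

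Mgp encodes matrix Gla protein, an inhibitor of calcification made by cartilage cells, vascular smooth muscle and fibroblasts. It was at 5.78, 3.56, 4.91 and 2.37 in control, at 4.82, 4.62, 4.63 and 4.28 in bur and at 4.59, 5.37, 4.14 and 4.05 in laser bone. The controls spanned both the highest and the lowest value of all 12 arrays, with an SD of 1.50 against 0.22 in bur and 0.60 in laser bone. Its pooled SD of 0.942 was above that of 95.7% of genes. The changes of 0.38 after laser (interval -0.92 to 1.69, limma adjusted p = 0.663) and 0.43 after bur (interval -0.87 to 1.74, limma adjusted p = 0.61) were smaller than this spread. Without control replicate 4 they were -0.21 and -0.16.

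Sparc encodes osteonectin, a collagen-binding matrix glycoprotein of osteoblasts and other connective tissue cells. It was at 6.53, 7.57, 7.52 and 7.16 in control, at 7.33, 6.76, 6.42 and 7.53 in bur and at 6.74, 7.53, 7.42 and 7.57 in laser bone. The groups overlapped, with replicate 1 lowest in control and in laser bone. The changes were 0.12 after laser (interval -0.55 to 0.78, limma adjusted p = 0.8) and -0.19 after bur (interval -0.85 to 0.48, limma adjusted p = 0.671). With quantile normalization the laser value was 0.32 and the bur value turned to 0.08. The authors' deposited table gives 0.50 (adjusted p = 0.258) and 0.28 (adjusted p = 0.519).

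Omd encodes osteomodulin, a small leucine-rich keratan sulfate proteoglycan of mineralised tissue. It was at 1.97, 2.68, 3.14 and 2.15 in control, at 3.38, 2.60, 2.18 and 3.24 in bur and at 2.64, 3.44, 3.04 and 3.43 in laser bone. Control replicates 2 and 3 lay inside the laser range, so the groups overlapped. Its change was 0.65 after laser (interval -0.05 to 1.36, limma adjusted p = 0.157) and 0.37 after bur (limma adjusted p = 0.414). The second probe, 215 bases away, gave 0.95 after laser (interval 0.26 to 1.65, limma adjusted p = 0.0522), just above the threshold.

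Ifitm5 encodes a small membrane protein of osteoblasts, also called BRIL, that is altered in a dominant form of brittle bone disease. It was at 1.46, 2.00, 2.12 and 1.23 in control, at 2.25, 2.23, 1.30 and 3.07 in bur and at 2.05, 2.90, 3.47 and 2.68 in laser bone. All but 1 laser array, replicate 1, lay above every control. The laser change of 1.07 was as large as that of Alpl, but its SE was 0.38 and it missed the threshold (interval 0.24 to 1.91, limma adjusted p = 0.0624). The second probe, shown above with its stop triplet, gave 1.06 (limma adjusted p = 0.091). The call was gained in 4 of 12 fits that left out 1 array and with normexp correction (1.19, limma adjusted p = 0.0329), and the authors' deposited table gives 1.17 (adjusted p = 0.0351) for the brighter probe. After bur the change was 0.51 (interval -0.32 to 1.35, limma adjusted p = 0.331).

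For the genes called here, laser against control in the authors' deposited table of comparisons is 1.24 for Spp1 (adjusted p = 0.00755), 1.22 for Enpp1 (0.0152), 0.91 for Phospho1 (0.00946) and 0.63 for Ibsp (0.0485). The authors' deposited table holds Alpl and Omd by their dimmer probes only. Alpl is at 0.85 there for laser against control (adjusted p = 0.0167) and 0.11 for bur against control. Omd is at 0.70 (adjusted p = 0.124) and 0.30 (adjusted p = 0.499).

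**Figure D4:**
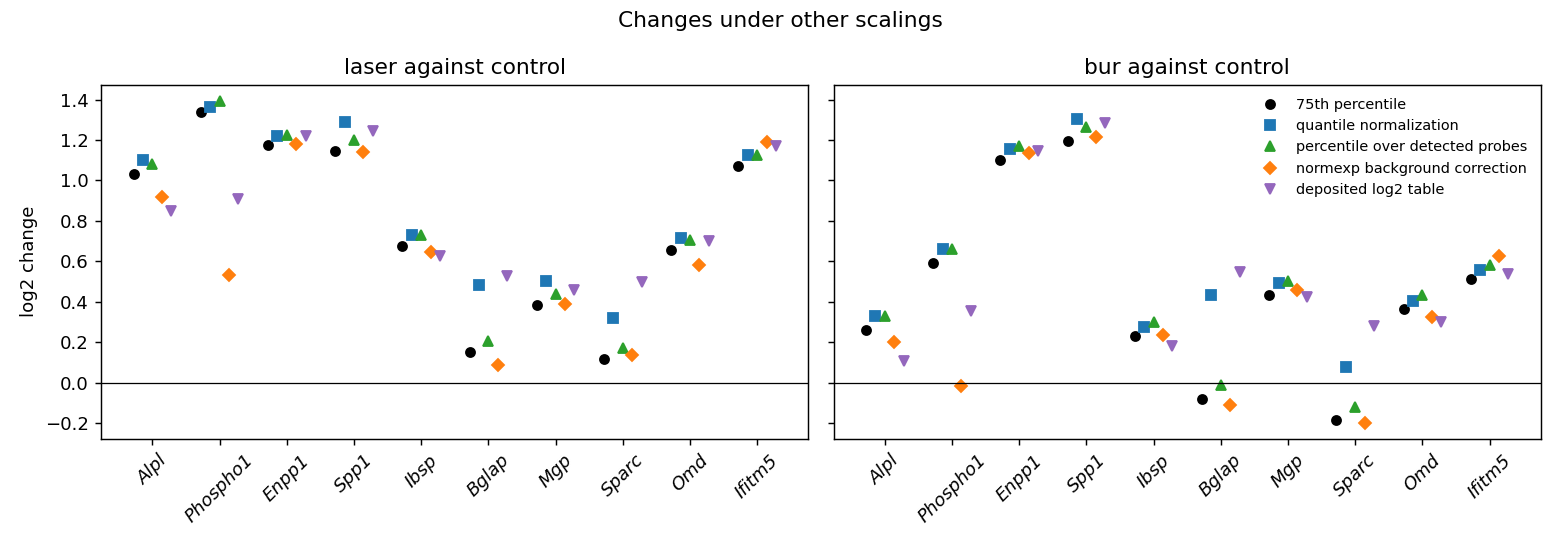
Log2 changes of the 10 genes against control under 5 treatments of the signals. These include the 75th percentile scaling used in the text, quantile normalization and the 75th percentile over probes detected on all arrays. The others are normexp background correction and the deposited log2 table, which holds Alpl and Omd by their dimmer probes. Alpl, Enpp1, Spp1, Ibsp, Mgp, Omd and Ifitm5 stay above 0 in both panels. In bur bone Bglap moves from -0.08 to 0.55 and Phospho1 from 0.59 to -0.02.

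The 10 genes did not vary as 1 block. After each group's mean was taken off, Pearson's r over the 12 arrays was 0.937 between Ibsp and Ifitm5, 0.91 between Sparc and Omd, 0.896 between Phospho1 and Sparc and 0.867 between Alpl and Ibsp. Mgp was at -0.404 with Phospho1 and -0.373 with Bglap, and at 0.524 with Spp1 and 0.347 with Alpl. The median over 45 pairs was 0.407, and 40 of the 45 were above 0. Arrays share a scaling factor, and these values are descriptions with no test.

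For each gene, the 3 symbols whose levels ran most alike over the 12 arrays were taken among 14682 gene symbols by Pearson's r. Spp1 ran with Myadm (0.978), Ccl9 (0.974) and Rtl5 (0.963), and Enpp1 with Dusp9 (0.978), Wnt5a (0.973) and Hsf2 (0.971). Alpl ran with Stk39 (0.947), Pxylp1 (0.914) and Rwdd2b (0.913), and Phospho1 with Ampd2 (0.966), Rerg (0.949) and Sgms2 (0.948). Ibsp ran with Bambi (0.943), Pcsk6 (0.94) and Lgals2 (0.939), and Ifitm5 with Sprn (0.954), Pcsk6 (0.953) and Fto (0.949). Pcsk6, a proprotein convertase gene, was thus near both Ibsp and Ifitm5. Bglap ran with Adora3 (0.93), Sectm1b (0.929) and Ogdh (0.912), and Mgp with Pdzrn4 (0.951), Wfdc1 (0.944) and Pcsk5 (0.942). The highest r for Sparc was 0.908 with Lipc, followed by Cpe (0.886) and Plcd1 (0.88), and for Omd 0.931 with Serf1, followed by Dync1i1 (0.928) and Gdf11 (0.916). These are the highest of many values over arrays that share groups, scaling and slides.

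Other genes of mineralisation were taken from a list of 42, of which 41 had a kept probe. After laser ablation 10 of the 41 rose and none fell (24.4% called, and 19 at an unadjusted p under 0.05), with a median change of 0.64. After bur drilling 5 rose and 1 fell (14.6%), with a median of 0.42. Between laser and bur limma called 0 of the 41, and 3 had an unadjusted p under 0.05. These shares stand beside the 22.3% and 26.2% of all genes called. Phex, a phosphate-regulating endopeptidase gene of osteocytes, went from -4.62 ± 0.58 in control to -3.01 ± 0.21 in laser bone (SD, n = 4), a rise of 1.62 (SE 0.30, limma adjusted p = 0.01). Dmp1, an acidic matrix protein gene of osteocytes, rose by 1.56 (SE 0.36, limma adjusted p = 0.0176) and Mepe, another of its family, by 1.37 (SE 0.36, limma adjusted p = 0.0254). In bur bone Phex was at 0.89 above control (limma adjusted p = 0.0503).

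Fam20c, the kinase gene for secreted acidic phosphoproteins such as osteopontin, rose by 1.36 after laser (SE 0.32, limma adjusted p = 0.0188) and by 1.39 after bur (SE 0.32, limma adjusted p = 0.0125). Enpp3, a relative of Enpp1, rose by 1.37 (limma adjusted p = 0.0269) and 1.65 (limma adjusted p = 0.0116). Serpinh1, the collagen chaperone gene, rose by 1.38 and 1.12, while the type I collagen genes Col1a1 and Col1a2 were at -0.01 and -0.18 after laser and at -0.15 and -0.33 after bur, and neither was called. Lum, a leucine-rich proteoglycan gene, and Cd44, an osteopontin receptor gene, rose after laser by 1.35 and 0.81 and after bur by 1.49 and 0.94. Ahsg, the gene for fetuin-A, a serum inhibitor of mineralisation, fell by 0.68 in bur bone (SE 0.15, limma adjusted p = 0.0114). In laser bone it was at -0.38 (SE 0.15, limma adjusted p = 0.0874).

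**Figure D5:**
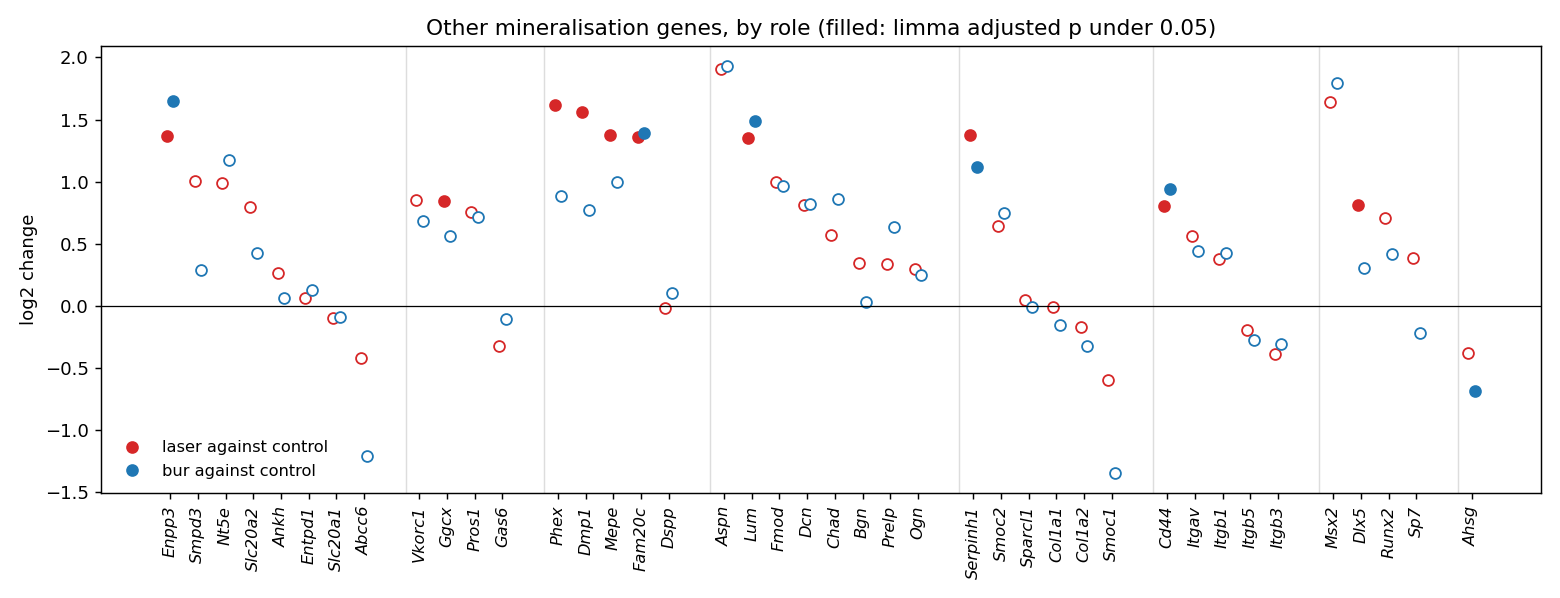
Log2 changes of 41 other mineralisation genes against control, grouped by role and separated by vertical lines, with filled circles where the limma adjusted p was under 0.05. In the third group Phex, Dmp1, Mepe and Fam20c are filled for laser, and Fam20c alone is filled for bur.

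Cell type markers moved between the same groups. Over all 22718 genes, 2103 were called higher and 2958 lower after laser, and 2270 and 3678 after bur. Of 5 osteocyte markers with a kept probe, 4 rose after laser (Phex, Dmp1 and Mepe, named above, and Pdpn) and 1 after bur (Pdpn). Sost was at 0.02 after laser (limma adjusted p = 0.969) and 0.1 after bur (limma adjusted p = 0.847). The summed log2 level of the 5 was 3.59 to 4.38 in control, 4.51 to 5.68 in bur and 4.64 to 6.05 in laser bone. Mepe alone was at 3.28 to 3.96 in control. Of 6 osteoblast markers, the 1 that rose after laser was Ibsp itself, and the list's summed log2 level was 9.22 to 9.64 in control, 8.91 to 9.46 in bur and 9.06 to 9.52 in laser bone. All 6 erythroid markers fell in both comparisons, from a summed log2 level of 5.76 to 8.12 in control to 3.32 to 5.79 in bur and 4.06 to 5.96 in laser bone. Of 5 adipocyte markers 4 fell in both, and of 6 B cell markers 2 fell after laser and 3 after bur. Of 6 neutrophil markers 3 fell after laser and 2 after bur, and of 4 markers of dividing cells 2 and 3 fell. Of 4 cartilage markers Acan and Ihh rose after laser, and Matn1 was well above background on 0 control arrays. Of 4 endothelial markers 1 fell after laser and 2 after bur, of 3 smooth muscle markers 1 rose after laser, and of 4 skeletal muscle markers limma called 0, with 0 at an unadjusted p under 0.05. The part of these shifts in the changes of the 10 genes was not tested.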

How the data were processed

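Total RNA of 12 calvarial samples was measured on 1-colour Agilent arrays (Cy3). The authors deposited scanner output with spot intensity on a linear scale, made with Agilent Feature Extraction 11.0.1.1 per the file headers and the submitters' processing notes, which is background-subtracted and not scaled between arrays. Beside these, log2 expression values labelled as quantile-normalized were deposited, with tables of the authors' comparisons that give log2 changes, p-values and adjusted p-values. The steps between are not given in the sources used here. Deposited spot flags for background and outliers, whose values are yes or no codes, came from the same scanner output per the file headers.

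Each processed intensity was divided by the 75th percentile of non-control spots on its array and put on the log2 scale, without outlier spots (19 among the 10 genes' spots), with spots of a probe averaged. A probe was kept if well above background on at least 4 of 12 arrays (29775 of 45598), and the brightest stood for its gene. No spot was saturated. limma 3.58.1 in R 4.3.3 (lmFit, eBayes) was fitted on all 12 arrays with group means, two-sided, with Benjamini-Hochberg adjustment over 22718 genes at 0.05. For second probes the fit ran over all kept probes. On simulated data for laser against control over 22718 genes, it recovered 44 of 100 genes changed by 1 on the log2 scale. It recovered 82 of 100 changed by 2, with 9 false calls. The real comparison had 5061 called genes, far more than were changed there, so these rates need not hold for it.

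The genes, lists and alternatives were chosen with earlier results of these data known. Named were all 10 genes, the 6 passing list genes with the largest change in each comparison, and the 3 most alike symbols per gene. List genes named beyond these (Dspp, Col1a1, Col1a2, Lum and Cd44 after laser, and values of genes not called) and marker genes were chosen after their values were seen. Same-numbered arrays deviated together between laser and control (r = 0.34, 0.18, 0.22 and 0.13) and laser and bur (0.25, 0.24, 0.16 and 0.34). For unlike numbers the highest r was 0.11 to 0.12 and 0.1 to 0.14, so the numbers may pair these samples. Between bur and control r was 0.28, -0.05, 0.28 and 0.08, against up to 0.32 for unlike numbers. The main fit did not use the numbers, which entered only as the replicate block, equally a block for slide row. Alternatives were other scalings, background correction, filters, probe summaries, array weights, the replicate block, fits on 2 groups, the deposited log2 table and leaving out each array.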

Additional observations from a re-analysis of the deposited data

Results flagged for a closer look

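Laser replicate 3 stood far above the other laser arrays in Ibsp, at 3.11 against 2.47 to 2.56, and the gap was 0.866 of the group's range. It was the 1 such array in 30 groups checked (10 genes in 3 groups), where chance alone marks about 1 group in 20. Without it the laser change of Ibsp was 0.53 (limma adjusted p = 0.126).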

How the results depend on the processing

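Calls over all genes moved with the setting. In laser against control 2103 were higher and 2958 lower in the main fit, and 651 and 1107 in the fit on 2 groups. The counts were 1187 and 2438 with normexp, and 1199 and 1973 of 34912 genes with no filter. Array weights gave 3534 and 4001, and the deposited log2 table gave 2657 and 2880 of 20522 genes. In bur against control they were 1483 and 2958 on 2 groups and 3631 and 4738 with array weights. The number of the 10 genes called in laser against control was 3 with no filter on dim probes. It was also 3 in a fit on only the groups compared, 6 with normexp, 6 with array weights and 7 with the deposited log2 table. This number ranged from 2 to 6 when 1 array was left out. In bur against control it was 1 with the mean of probes, 1 in a fit on only the groups compared and 3 with the deposited log2 table (1 to 2 with an array left out), and in laser against bur it was 0 throughout (0 to 0). Of the 41 list genes, 10 were called in laser against control, 4 in a fit on only those groups and 15 with array weights, with the other settings at 7 to 13 (2 to 19 with an array left out), and in bur against control 10 with quantile normalization, 10 with normexp and 11 with array weights (4 to 17); the high ends, 19 and 17, came without control replicate 3. Signs turned for Bglap in laser against control (-0.0134, array weights), Sparc there (-0.0249, array weights), Phospho1 in bur against control (-0.0154, normexp), Bglap there (0.43, quantile; 0.55, deposited log2 table) and Sparc there (0.0758 and 0.282). They also turned in laser against bur for Bglap (-0.0195, deposited log2 table), Enpp1 (-0.00253, mean of probes) and Mgp (0.00839, quantile; 0.0325, deposited log2 table). The causes were not tested. With an array left out, laser against control was -0.10 to 0.31 for Sparc and -0.21 to 0.92 for Mgp. Bur against control was -0.17 to 0.0262 for Bglap, -0.41 to 0.00936 for Sparc and -0.16 to 0.97 for Mgp. Laser against bur was -0.13 to 0.0794 for Spp1, -0.17 to 0.25 for Enpp1 and -0.33 to 0.11 for Mgp. Of the 10 genes' changes in 3 comparisons, 277 values under other settings kept direction and side of the threshold, 8 lost a call, 4 gained one and 11 turned sign, among which Bglap in bur against control also passed with the deposited log2 table (limma adjusted p = 0.025). The replicate block ended the Ibsp call in laser against control (limma adjusted p = 0.0718) and changed no other call of the 10 genes. normexp moved the median of all genes to -0.08, -0.24 and 0.13 in laser against control, bur against control and laser against bur, and using no filter moved it to -0.14 in bur against control. The share of called genes that were higher in bur against control was 38.2%, 20.7% with normexp and 26.8% with no filter. Slide as a block could not be fitted, because each comparison with control lies across slides and laser against bur within 1 slide. Low signal limits the precision of Phospho1.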
